A study of Rattus norvegicus with 20 samples.

Results

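Thrombomodulin (Thbd) and 7 other genes that control clotting, fibrinolysis or phosphatidylserine exposure were followed in rat whole blood. The other members were Procr, F3, Plau, Plaur, Anxa2, Anxa5 and Ggcx. Members were found by the gene name of their probes, or its current symbol in RefSeq, which gave 8 genes with 11 of the 30367 probes on the array. Of these, 7 probes passed the filter on dim probes, and 6 genes entered the fit of 15240 genes. F3 and Plau did not. Thbd was chosen by its measured level, which was lower with STW5 than without treatment, and the others were listed by name. Every comparison of Thbd that uses the untreated or the STW5 arrays is therefore a description and carries no test.

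Thrombomodulin sits on the cell surface, binds thrombin and turns it from a clotting enzyme into an activator of protein C, which inactivates clotting cofactors. The endothelial protein C receptor, encoded by Procr, presents protein C to that complex, while tissue factor, encoded by F3, starts clotting. Endothelium is the best known source of thrombomodulin, and monocytes and neutrophils also make it. Urokinase and its receptor (Plau, Plaur) and annexin A2 (Anxa2) promote the formation of plasmin, which dissolves fibrin. Annexin A5 (Anxa5) covers the phosphatidylserine on which clotting enzymes assemble, and Ggcx carboxylates the vitamin K-dependent clotting proteins and protein C.

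Blood was taken from 20 Wistar rats, 1 array per rat, in 5 groups of 4. Sham rats had a sham operation. In the other 4 groups surgery had caused reflux esophagitis, and the rats were left untreated, or received STW5 at 0.5 ml/kg, STW5 at 2 ml/kg or omeprazole at 30 mg/kg. STW5 is a liquid herbal preparation and omeprazole a blocker of gastric acid secretion. Both were given for 7 days before and 10 days after surgery.

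A level is log2 of a probe's processed intensity relative to the 75th percentile of its array, which lay between 71.3 and 308. Sham and untreated arrays shared 1 slide, both STW5 doses another, and omeprazole the third, so treatment and slide cannot be told apart except for untreated against sham and between the STW5 doses. The authors' value table gives the 8 STW5 columns the values of the other dose's arrays, and the array titles and the design text number these groups in opposite order. The titles were followed, and the mean over both doses does not depend on this choice. Untreated array 1 correlated more closely with the sham arrays (mean r = 0.984 over the tested genes) than with the other untreated arrays (0.92). Untreated array 2 did so too, by less (0.927 against 0.91). Untreated arrays 3 and 4 had nearly equal mean r with sham (0.905 and 0.936) and with the other untreated arrays (0.91 and 0.938). Where leaving out untreated array 1 altered a call, both values are given. That array was singled out by these same expression values for its likeness to sham. Calls gained without it are therefore a description. P-values measure the spread between these rats. In whole blood, fewer cells of a type and less RNA per cell cannot be told apart.

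The probes differ in where they lie on their transcripts. The pair of Thbd probes and the pair of Plaur probes did not behave alike. Whether probe position had a part in this was not tested. The dimmer Thbd probe was well above background on only 2 arrays. The coding-sequence probes behind the results are shown 5′ to 3′ as the scanner files give them, in rn4 coordinates, with a stop codon at the end of an open reading frame in capitals.
Thbd, chr3:137160721-137160780, minus strand: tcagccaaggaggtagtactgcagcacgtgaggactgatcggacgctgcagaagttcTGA
Procr, chr3:146272259-146272318, plus strand: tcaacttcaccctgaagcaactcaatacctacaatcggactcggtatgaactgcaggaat
Plaur, chr1:79713035-79713094, plus strand: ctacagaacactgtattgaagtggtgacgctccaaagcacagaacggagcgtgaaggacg
Plaur, chr1:79712786-79712845, plus strand: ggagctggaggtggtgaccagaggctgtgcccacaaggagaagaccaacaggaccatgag
Anxa5, chr2:122950184-122950243, minus strand: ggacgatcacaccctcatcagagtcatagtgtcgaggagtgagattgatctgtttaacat
The Thbd sequence shown begins at base 1827 of the transcript and ends with the stop codon. The other Thbd probe, at chr3:137158969-137159028 on the minus strand, begins at base 3579, in the 3′ untranslated region of this single-exon gene. That probe was the brighter of the pair and stands for Thbd below.

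Thbd was highest on 2 of the 4 untreated arrays and varied more within that group than within any other. The untreated levels were -3.14, 0.91, -2.06 and 0.45 on arrays 1 to 4. The sham levels were -4.34, -3.18, -3.37 and -4.49. Untreated arrays 2 and 4 stood far above all sham arrays, while untreated array 1 stood only just above the highest sham array. With omeprazole the levels were -2.49, -2.35, -2.80 and -2.48, the tightest of the 5 groups.

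The STW5 levels of Thbd differed between the doses as titled. At 0.5 ml/kg they were -2.54, -1.25, -1.71 and -2.74. At 2 ml/kg they were -4.25, -4.38, -3.01 and -3.94. All arrays of the lower dose lay above all arrays of the higher dose, and each STW5 group overlapped the untreated group. At 2 ml/kg that overlap rested on untreated array 1, and at 0.5 ml/kg on untreated arrays 1 and 3. If the value table's assignment is right, the doses change places.

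Thbd signal was close to the detection limit on many arrays. It was well above background on 1 of 4 sham, 3 of 4 untreated, 4 of 4 STW5 0.5 ml/kg, 1 of 4 STW5 2 ml/kg and 4 of 4 omeprazole arrays. Processed intensity reached 312 on untreated arrays and 129 at 0.5 ml/kg, against at most 19.1 on sham, 20.3 at 2 ml/kg and 40.3 on omeprazole arrays. The sham and 2 ml/kg means thus rest mostly on values not well above background.

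**Figure D1:**
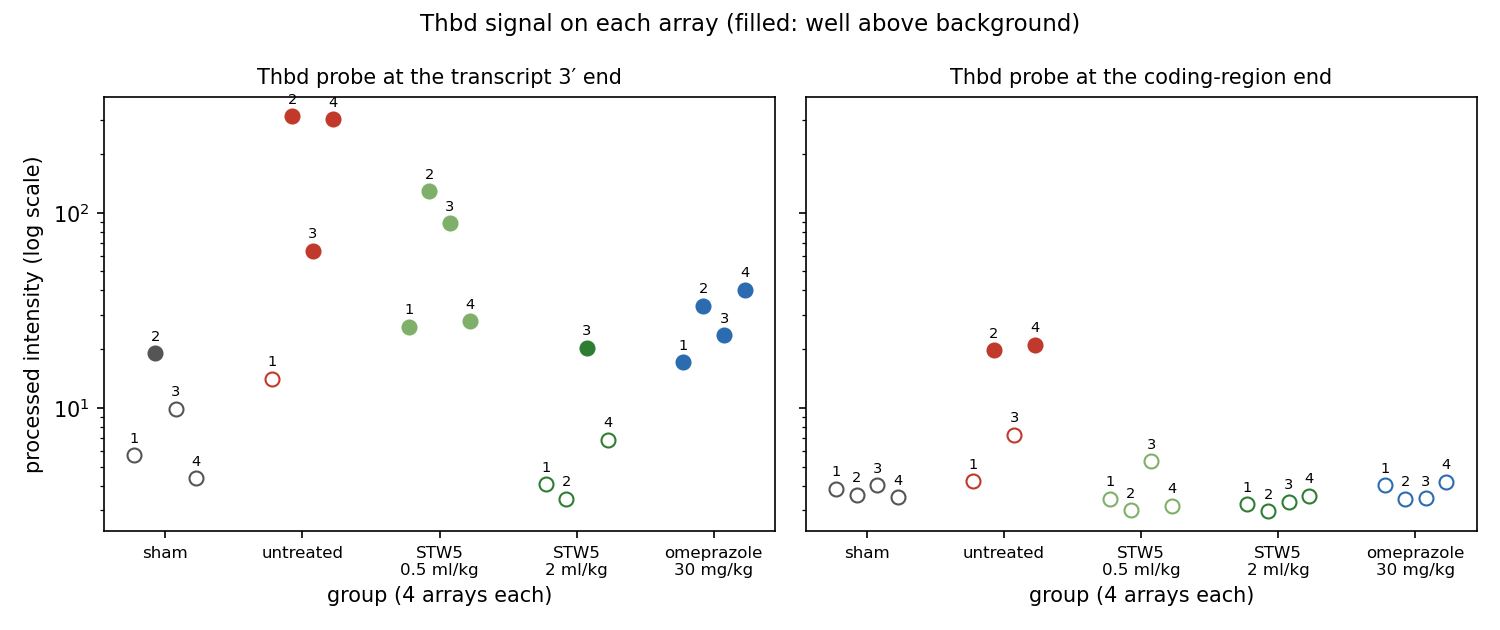
Processed intensity (log axis) of the 2 Thbd probes on each of the 20 arrays, by group, with the array number above each point and filled points for arrays well above background. On the 3′ probe untreated arrays 2 and 4 exceed all others, and on the coding-end probe these 2 arrays are the only ones well above background.

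As group means, Thbd was at -0.96 ± 1.95 (SD, n = 4) in untreated, -2.06 ± 0.70 at 0.5 ml/kg, -2.53 ± 0.19 with omeprazole, -3.85 ± 0.66 in sham and -3.90 ± 0.62 at 2 ml/kg. Neighbours in this order overlapped, except omeprazole and sham. The mean over both STW5 doses differed from untreated by -2.02 ± 0.56 (SE) on the log2 scale, which is the difference that chose the gene. The difference was -1.39 without untreated array 2 and -2.74 without untreated array 1. Untreated exceeded sham by 2.89 ± 0.65, and their arrays did not overlap at this scaling but did with normexp background correction, quantile normalization, spike-in scaling and the authors' value table.

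The one comparison of Thbd that the choice did not touch is omeprazole against sham. Every omeprazole array lay above every sham array, and the mean difference was 1.31 ± 0.65 (SE; 95% interval -0.05 to 2.68). It missed the threshold, with a limma adjusted p of 0.377. Of all genes tested, 15.3% had no overlap between these groups, so the separation is common here. The groups did overlap with normexp correction, where the difference was 0.14, and with spike-in scaling. A fit to those 8 arrays alone gave an SE of 0.31 and a limma adjusted p of 0.0248.

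The coding-end Thbd probe was well above background only on untreated arrays 2 and 4, the same arrays that stood highest with the 3′ probe. Its intensities there were 19.7 and 21.1. Untreated arrays 1 and 3 and all arrays of the other groups were not well above background, so no fold is given for this probe.

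Procr, which encodes the endothelial protein C receptor, was the only member to pass the test in any of the 7 comparisons, in the fit of 5 group means to all 20 arrays. Its level was higher with omeprazole than in untreated esophagitis. The untreated levels were 2.54, 1.67, 0.52 and 0.66, and the omeprazole levels were 3.65, 3.08, 2.88 and 2.33. Only untreated array 1 reached into the omeprazole range. The sham levels of 2.96, 2.69, 2.27 and 2.86 lay close to those with omeprazole.

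The omeprazole mean of Procr was 2.98 ± 0.54 (SD, n = 4) and the untreated mean 1.35 ± 0.94. The difference was 1.64 ± 0.43 (SE), or 3.11-fold, with a limma adjusted p of 0.0321. In this comparison 4.18% of all genes passed, and 1 of the 5 members open to testing did. The call was lost when any 1 of untreated arrays 3 or 4 or omeprazole arrays 1, 2 or 3 was left out (adjusted p 0.0663 to 0.134), with no filter on dim probes (0.0588) and with only these 8 arrays fitted (0.174). Within groups the Procr level ran against array signal (r = -0.72 with log2 of the 75th percentile, 20 arrays, a description). With array signal as a covariate the difference was 1.39, with an adjusted p of 0.00821.

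For STW5, Procr levels were 2.70, 1.13, 2.45 and 2.16 at 0.5 ml/kg. They were 2.91, 2.39, 1.75 and 2.99 at 2 ml/kg. Of these 8 arrays 5 lay within the omeprazole range and 3 below it, and both groups overlapped untreated. The mean over both doses was 0.96 ± 0.37 (SE) above untreated, with a limma adjusted p of 0.471.

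Untreated Procr differed from sham by -1.35 ± 0.43 (SE), the opposite sign to the other 5 tested members. Its limma adjusted p was 0.242. Without untreated array 1, the difference was -1.75 and the adjusted p 0.0184, with 1761 genes passing in place of 1. With another array left out instead, the limma adjusted p reached 0.467 for Procr, and likewise for Plaur, Anxa2 and Ggcx.

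**Figure D2:**
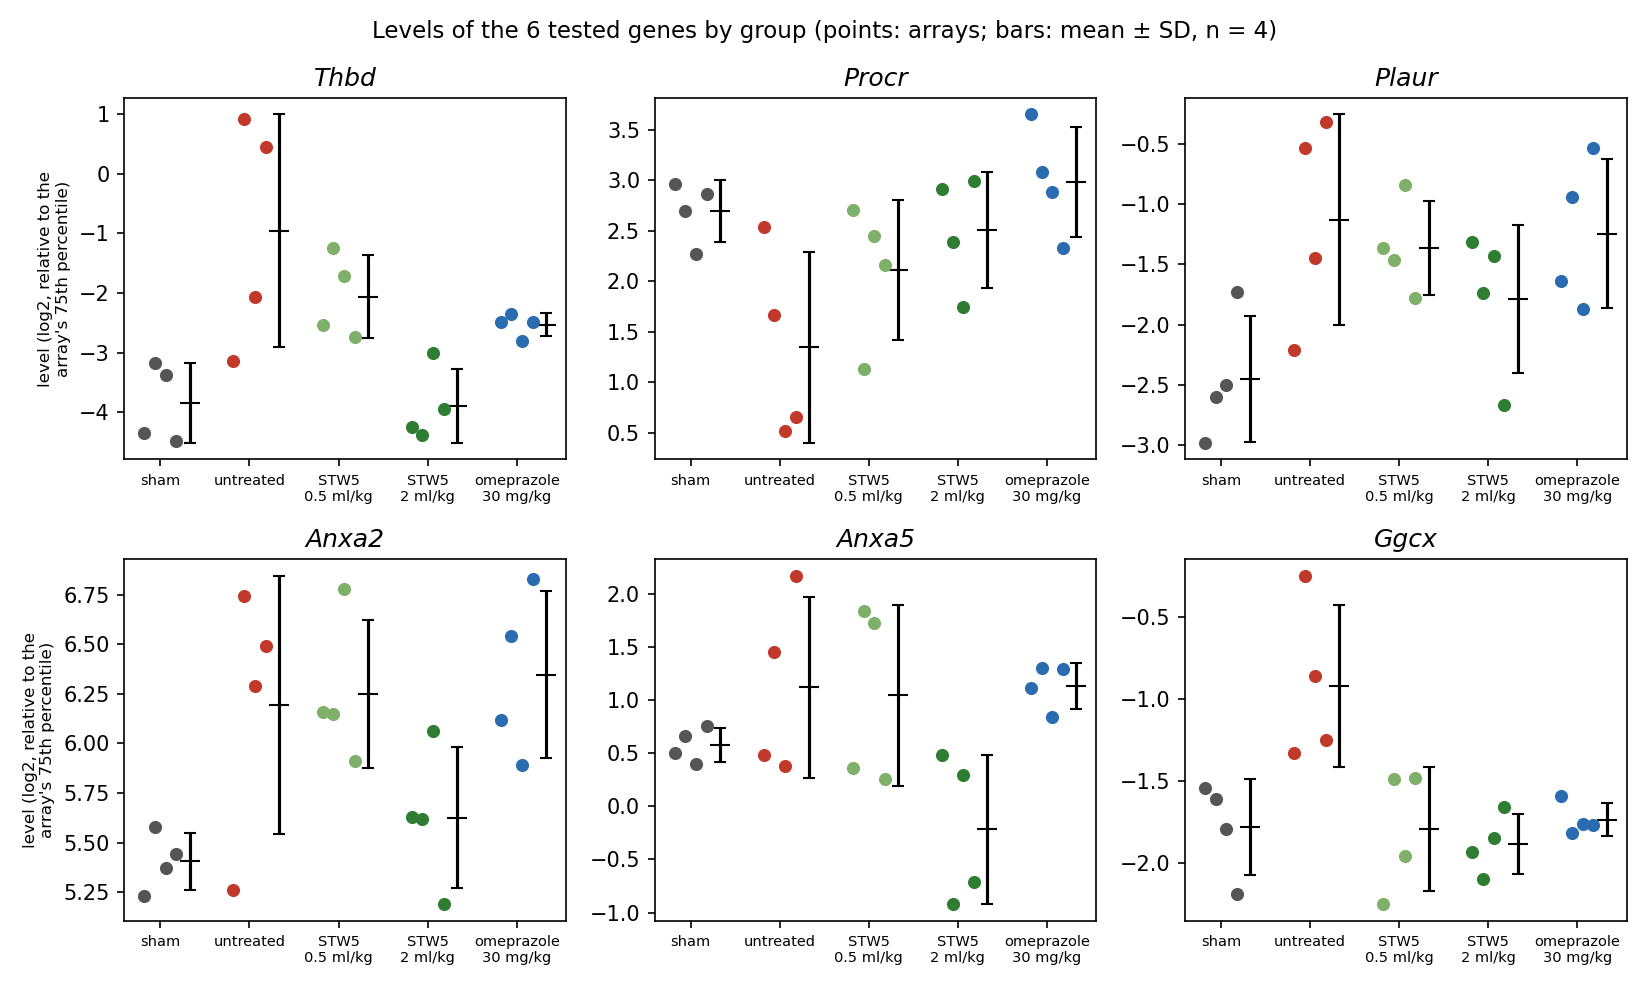
Level (log2 relative to the array's 75th percentile) of the 6 tested genes in each group. Points are arrays in order 1 to 4 and bars are mean ± SD (n = 4). Procr is lowest, and Thbd, Plaur and Ggcx are highest, in the untreated group. Its arrays spread most for every gene but Anxa5, where STW5 0.5 ml/kg spreads as much (SD 0.85).

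F3, the trigger of clotting, was never well above background. Its probe, at chr2:218382225-218382283, gave intensities of 3.07 to 5.13 on the untreated arrays and similar values elsewhere. No difference in F3 was detectable with this probe in blood.

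Plau, which encodes urokinase, was likewise not well above background on any of the 20 arrays. Its intensities ran from 2.93 to 6.06 on untreated arrays and from 3.42 to 3.84 on sham arrays. The protease of the urokinase system was thus not measured, while its receptor was.

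Plaur, the urokinase receptor, had a low level in sham and higher values in the esophagitis groups, but its probes differed. With the brighter probe the sham levels were -2.98, -2.60, -2.50 and -1.73. The untreated levels were -2.21, -0.53, -1.45 and -0.32. Sham array 4 and untreated array 1 made the groups overlap. Omeprazole levels were -1.64, -0.94, -1.87 and -0.53, which overlapped sham by 1 array on each side.

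With that probe untreated exceeded sham by 1.33 ± 0.42 (SE), with a limma adjusted p of 0.242, or 1.69 and 0.0202 without untreated array 1. The other Plaur probe gave 0.24 ± 0.35. Omeprazole exceeded sham by 1.20 ± 0.42 (adjusted p 0.122), and the other probe gave 0.85 ± 0.35. STW5 means were -1.36 at 0.5 ml/kg and -1.79 at 2 ml/kg against -1.13 untreated, and neither dose passed the test against untreated.

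Anxa2, the cell-surface coreceptor of plasminogen and its tissue activator, was well above background on all 20 arrays. Its sham levels were 5.23, 5.58, 5.37 and 5.44. Its untreated levels were 5.26, 6.74, 6.29 and 6.49. Untreated array 1 lay inside the sham range and the other 3 above it. The omeprazole levels of 6.12, 6.54, 5.89 and 6.83 were all above sham.

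Omeprazole exceeded sham in Anxa2 by 0.94 ± 0.30 (SE; 95% interval 0.31 to 1.57), with a limma adjusted p of 0.0867. The separation of the arrays was lost under spike-in scaling, and the fit to these 8 arrays alone gave an adjusted p of 0.0271. Untreated exceeded sham by 0.79 ± 0.30 (adjusted p 0.247, or 1.10 and 0.0218 without untreated array 1). The Anxa2 level with STW5 at 0.5 ml/kg ran from 5.91 to 6.78 and at 2 ml/kg from 5.19 to 6.06. The dose means differed by -0.62 ± 0.30, with a limma adjusted p of 0.193.

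Anxa5, the phosphatidylserine-binding annexin, split the untreated and the STW5 0.5 ml/kg groups into high and low arrays. The untreated levels were 0.48, 1.45, 0.38 and 2.17, and those at 0.5 ml/kg were 0.36, 1.84, 1.72 and 0.26. The levels at 2 ml/kg were 0.48, -0.92, 0.29 and -0.71. Arrays 2 and 4 of the higher dose were the lowest of all 20. Sham levels were 0.50, 0.66, 0.40 and 0.76, all below the omeprazole levels of 1.11, 1.30, 0.84 and 1.29.

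STW5 at 2 ml/kg differed from untreated by -1.33 ± 0.42 (SE) in Anxa5, with a limma adjusted p of 0.101. It differed from the lower dose by -1.26 ± 0.42, with an adjusted p of 0.103. The omeprazole and sham means differed by 0.55 ± 0.42 (adjusted p 0.702), so the separation of these arrays was small against the spread pooled over all groups. It was lost under spike-in scaling.

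Ggcx, the vitamin K-dependent carboxylase, was higher on the 4 untreated arrays than on each of the 16 others. The untreated levels were -1.33, -0.25, -0.86 and -1.25. The highest level outside that group was -1.48, in STW5 at 0.5 ml/kg. Sham levels were -1.54, -1.61, -1.79 and -2.19. Even untreated array 1 lay above the rest, unlike its place in the other members.

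With omeprazole Ggcx was at -1.59, -1.82, -1.76 and -1.77. With STW5 it ran from -2.25 to -1.48 at 0.5 ml/kg and from -2.10 to -1.66 at 2 ml/kg. The sham, omeprazole and both STW5 groups overlapped, with means between -1.88 and -1.74. Of the 15240 genes, Ggcx alone (0.00656%) had all untreated arrays on 1 side of all others. This was seen after the values were known, and under the 4 other scalings tried Ggcx overlapped at least 1 of the 16 arrays.

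No Ggcx difference passed the test in the fit of group means to all 20 arrays. Untreated exceeded sham by 0.86 ± 0.25 (SE; limma adjusted p 0.242). The mean of both STW5 doses differed from untreated by -0.92 ± 0.22 (adjusted p 0.459) and omeprazole by -0.81 ± 0.25 (0.0826). Without untreated array 1 the limma adjusted p values were 0.029, 0.0401 and 0.0317. These values come from 1 of 2 Ggcx probes, at chr4:105734949-105735008. The other was not well above background on any array.

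**Figure D3:**
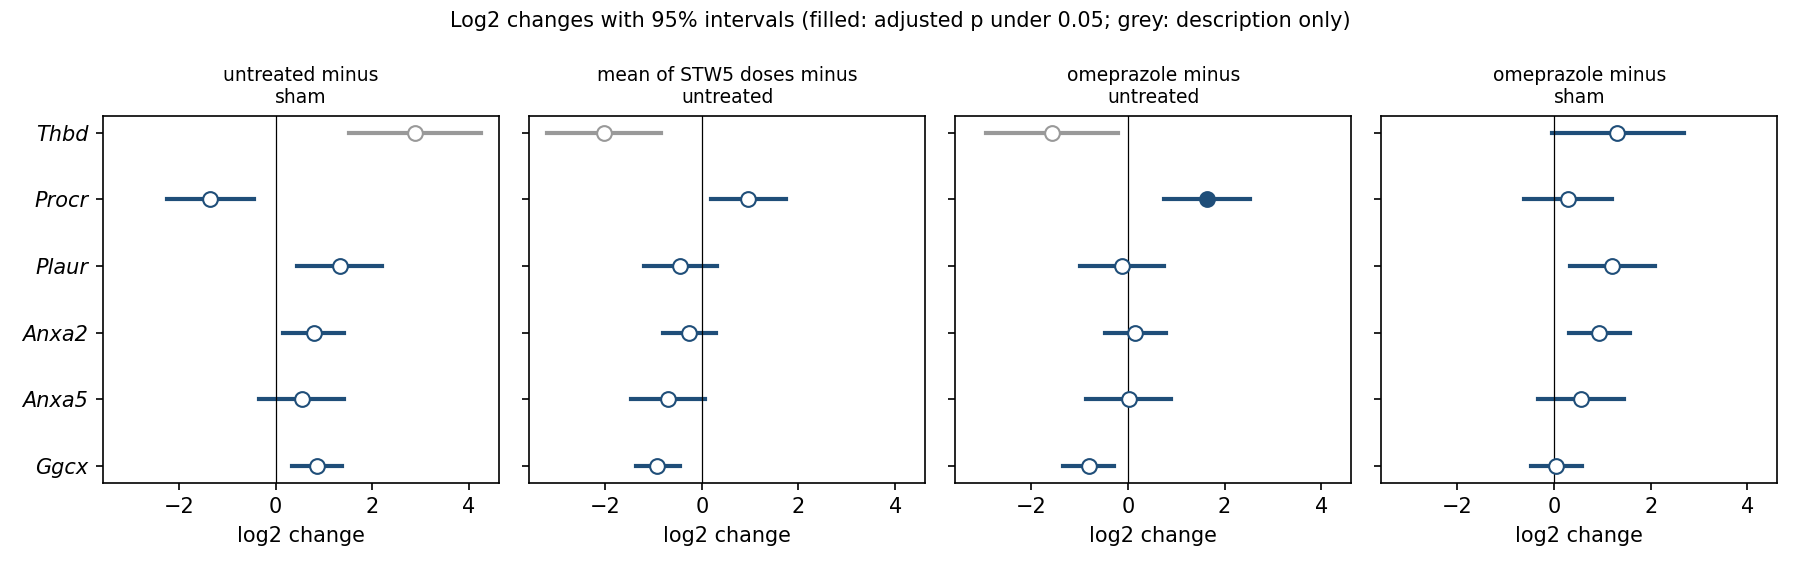
Log2 changes of the 6 tested genes in 4 comparisons, with 95% intervals from the fit to all 20 arrays. The filled point is the 1 change with an adjusted p under 0.05, Procr with omeprazole against untreated (1.64), and the grey Thbd bars carry no test.

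Set against all genes, the members did not make a long list of calls. Untreated against sham gave 0 calls among the 5 members open to testing in limma, with 4 at an unadjusted p under 0.05, where 0.00656% of all genes passed and 2777 had an unadjusted p under 0.05. The median change of the 5 members other than Thbd was 0.79 and that of all genes -0.19. Thbd and Ggcx had no overlap, 2 of 6, beside 3.14% of all genes. Thbd was chosen with the untreated arrays, so its place in this count is fixed in part by that choice.

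For the mean of both STW5 doses against untreated, limma called 0 of 15240 genes (0%), with 1455 at an unadjusted p under 0.05, among them Procr and Ggcx. The median change of the 5 members other than Thbd was -0.45 and that of all genes 0.10. Ggcx was 1 of 13 genes (0.0853%) for which all 8 STW5 arrays lay on 1 side of all untreated arrays. Against untreated, the dose of 0.5 ml/kg gave 0 calls (0%, 907 at an unadjusted p under 0.05) and that of 2 ml/kg gave 0 (0%, 3584). Groups did not overlap for 1.9% and 4.11% of genes in these comparisons, and for Ggcx among the members in both.

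Rats of the same number deviated together between 2 ml/kg and untreated (r of 0.187 to 0.488 over the 4 pairs). With the replicate number as a block, 513 genes passed at 2 ml/kg, among them Ggcx, which differed from untreated by -0.96 with a limma adjusted p of 0.04996 in place of 0.0972. Without untreated array 1, 3014 genes passed at 2 ml/kg, with Procr (1.56), Anxa2 (-0.88), Anxa5 (-1.55) and Ggcx (-1.10) among them. Without STW5 2 ml/kg array 3, 1035 genes passed, and Ggcx (-0.97) had an adjusted p of 0.0471. Between the doses, 0 genes passed (0%, 4053 at an unadjusted p under 0.05), and Thbd was the 1 member without overlap, beside 11.2% of all genes.

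With omeprazole against untreated, Ggcx was the member without overlap, beside 7.26% of all genes, and the median of the 5 members other than Thbd was 0.02. With omeprazole against sham, 4.74% of all genes passed and none of the 6 members did. Plaur and Anxa2 had an unadjusted p under 0.05, as did 2175 of the 15240 genes. Thbd, Anxa2 and Anxa5 had no overlap, 3 of 6, beside 15.3% of all genes. With spike-in scaling these 3 overlapped and Plaur did not. The median of the 6 was 0.74 against -0.08 for all genes. These comparisons share the untreated or sham arrays with others above, so their values are not independent.

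The rest of the coagulation system gave few calls. Of 10 genes of the protein C pathway and natural anticoagulants, 3 could be tested, and Procr was the only one that passed. Of 19 coagulation factor genes 8 were tested, and F5, encoding the cofactor that activated protein C cleaves, fell with omeprazole against untreated by 1.48 ± 0.38 (SE; limma adjusted p 0.0274). All 8 were above sham in the untreated mean, with a median of 0.64, and none of these passed. The smallest p-values there were those of F5 (1.30) and Lman1 (0.99), which carries factors V and VIII out of the endoplasmic reticulum. Of 12 genes of plasminogen activation and fibrinolysis 7 were tested, and of 4 protease-activated receptors 2, with no call in any of the 7 comparisons. In untreated against sham the smallest p-values of non-members were those of the protease inhibitors Serpine2 (0.79) and Serpinf2 (0.81), of the receptors F2rl2 (0.92) and F2rl3 (-0.53) and, among the natural anticoagulants, of Serpina5 (-0.74).

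All 6 vitamin K cycle genes were tested and none passed. In untreated against sham, Aifm2, which reduces vitamin K, was at 1.89 ± 0.44 (SE) and Gas6, a vitamin K-dependent ligand, at 3.04 ± 0.89, each with a limma adjusted p of 0.242. Aifm2 was well above background on only 6 of the 20 arrays and Gas6 on 9, so both differences rest partly on values near background. The median of the 6 genes was 1.04 against -0.19 for all genes, and 4 of them were above 0. Of 12 genes of annexins and phosphatidylserine exposure 11 were tested, 9 were above 0 in that comparison, and none passed. Their median was 0.70. The smallest p-values there were those of Anxa11 (0.83) and Xkr8 (0.87), a phosphatidylserine scramblase.

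All 7 genes listed as regulators of Thbd transcription were tested, and 2 passed, both with omeprazole against sham. In that comparison 4.74% of all genes passed, and the list gave 0 calls in the other comparisons. Klf6, a Krüppel-like transcription factor, rose with omeprazole against sham by 1.18 ± 0.33 (SE; limma adjusted p 0.0471). Il1b, an inflammatory cytokine that lowers Thbd in endothelium, rose by 1.49 ± 0.36 (adjusted p 0.0193). Klf2, the main activator of Thbd in endothelium, was at 0.54 ± 0.23 there (limma adjusted p 0.243) and is named for that role, after its value was seen. At 2 ml/kg against untreated Klf2 was at -0.42 ± 0.23 (limma adjusted p 0.265). Klf4, another listed factor, was at -1.08 ± 0.33 in that comparison (limma adjusted p 0.0978). Tnf, another inflammatory cytokine, was at 1.40 ± 0.46 in untreated against sham (adjusted p 0.242).

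Over the 20 arrays monocyte markers ran with the Thbd level, neutrophil markers did so less closely, and lymphocyte and erythroid markers ran against it. The mean level of the 8 monocyte markers, all tested, ran from 0.85 to 1.29 on sham and from 0.91 to 2.72 on untreated arrays. It ran from 1.36 to 2.09 at 0.5 ml/kg, 0.77 to 1.77 at 2 ml/kg and 1.38 to 1.71 with omeprazole. Untreated arrays 2 and 4, highest in Thbd, were also the highest here. Over the 20 arrays, which share batches and signal strength, r between the Thbd level and these markers was 0.83. Of the 8, the chemokine receptor Cx3cr1 fell with omeprazole against untreated by 1.95 (limma adjusted p 0.035), with no overlap, and no other passed in any comparison. With omeprazole against untreated 4.18% of all genes passed and 7.26% had no overlap.

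For the 8 mature neutrophil markers r with Thbd was 0.51, and their mean level ran from 1.28 to 2.06 on sham and from 1.79 to 4.21 on untreated arrays. Untreated array 2 alone gave 4.21, and the next was at 2.26. Against untreated, the group mean of these markers was higher at 0.5 ml/kg (0.47) and with omeprazole (0.41), where Thbd was lower. At 2 ml/kg it was slightly lower (-0.17). With omeprazole against sham, 2 of the 8 passed, the receptors Csf3r, up by 1.59, and Cxcr2, up by 1.77 (limma adjusted p 0.0341 and 0.0242). Of all genes 4.74% passed there. For platelet markers (6 of 8 tested) r was 0.22. The part of these cells in the results was not tested. For T-cell markers (4 of 4) and B-cell markers (4 of 4) r was -0.54 and -0.59, and for erythroid markers (5 of 6) it was -0.56.

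The mean level of the endothelial markers did not follow Thbd. Of 8, Tek and Emcn were not well above background on any array, and the mean level of the other 6 had r = -0.23 with Thbd. It ran from -1.43 to -0.86 on untreated and from -1.37 to -0.84 on sham arrays, so the groups covered nearly the same range. Single markers differed in sign. In untreated against sham 2 of the 6 were above 0, with Kdr (1.53) and Robo4 (-0.61) furthest apart, and none passed. Tie1 was well above background on only 4 of the 20 arrays. The part of endothelial cells in the Thbd level was not tested. Dendritic cell markers (5 of 6 tested) had r = -0.33.

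**Figure D4:**
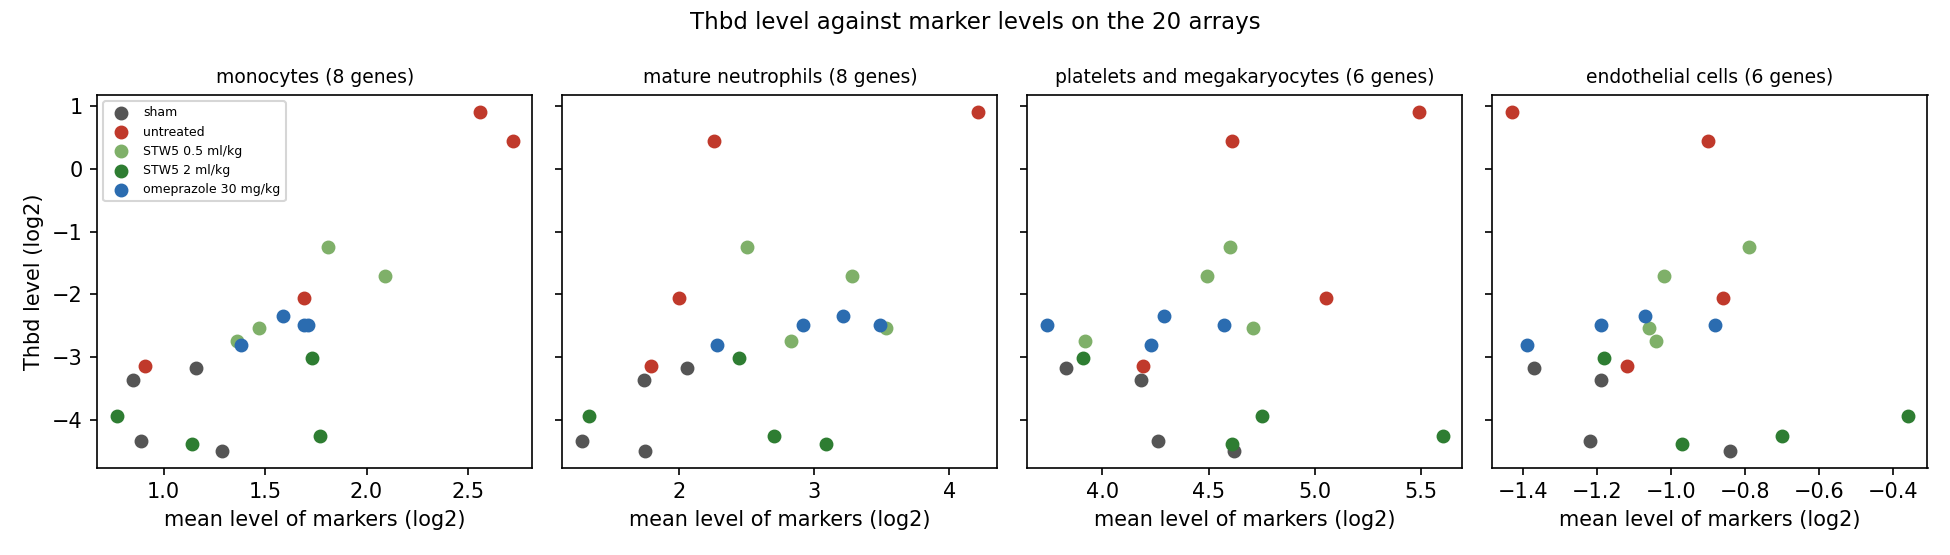
Thbd level against the mean level of 4 marker lists on the 20 arrays, coloured by group (both axes log2). Thbd is highest on the arrays with the highest monocyte markers (r = 0.83), while the mean of the endothelial markers lies in a narrow range (r = -0.23).

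Among the members, the levels of Anxa2, Anxa5, Plaur and Ggcx ran with Thbd over the 20 arrays (r of 0.76, 0.73, 0.70 and 0.67), and Procr ran against it (r = -0.61). Among all tested genes these r lay at the 98.2, 97.7, 97.0, 96.2 and 12.5 percentiles. After removal of the group means, r was 0.70, 0.69, 0.57, 0.45 and -0.43 in the same order. The Thbd level also ran with array signal (r = 0.66 with log2 of the 75th percentile), as did Anxa2 (0.68) and Anxa5 (0.64), and Procr ran against it (-0.62). The part of array signal in these relations was not tested.

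The genes most like Thbd over the 20 arrays were Pgam1, a glycolytic enzyme (r = 0.937), Sulf2, a heparan sulfate sulfatase (0.934), P4hb, a protein disulfide isomerase (0.925), Slc22a18 (0.922) and Ahnak (0.921). Within groups their r lay between 0.869 and 0.943. The genes most opposed were Rnf40 (r = -0.865) and Klrk1, which encodes the NKG2D receptor of natural killer cells (-0.846).

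Promoters were searched for the members that RefSeq's GRCr8 table held, which were 6 of the 8. Thbd and F3 were absent from it, so the Thbd promoter was not searched. The 6 include Plau, whose level could not be measured. The 250 bases before the start were searched on both strands for the AP-1 motif TGACTCA, for the GC box GGGCGG and for the TATA element TATAAA. The AP-1 motif stood in 3 of the 6 and in 4.05% of 33469 promoters. It is in capitals in the sequences, read 5′ to 3′ on the strand of the gene.
Procr, chr3:164714477-164714726: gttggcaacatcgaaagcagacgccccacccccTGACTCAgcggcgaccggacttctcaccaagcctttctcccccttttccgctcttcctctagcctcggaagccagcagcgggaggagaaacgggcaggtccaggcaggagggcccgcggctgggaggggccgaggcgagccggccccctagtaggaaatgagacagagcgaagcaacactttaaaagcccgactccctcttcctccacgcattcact
Plaur, chr1:89181113-89181362: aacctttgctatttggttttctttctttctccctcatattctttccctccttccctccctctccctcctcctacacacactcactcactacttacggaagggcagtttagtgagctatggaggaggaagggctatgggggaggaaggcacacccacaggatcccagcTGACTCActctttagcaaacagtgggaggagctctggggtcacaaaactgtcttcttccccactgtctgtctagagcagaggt
Anxa2, chr8:78986002-78986251: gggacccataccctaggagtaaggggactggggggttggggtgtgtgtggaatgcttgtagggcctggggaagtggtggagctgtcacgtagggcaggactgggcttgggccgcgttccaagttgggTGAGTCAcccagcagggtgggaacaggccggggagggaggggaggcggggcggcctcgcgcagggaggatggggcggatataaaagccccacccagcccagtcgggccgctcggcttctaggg
The match began 217 bases before the start in Procr, 83 in Plaur and 123 in Anxa2, so it was shared by a gene that ran against Thbd and by a pair that ran with it. The GC box stood in 4 of the 6 members and in 30.5% of all promoters. The TATA element stood in Anxa2 alone of the 6, and in 12.9% of all promoters.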

How the data were processed

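Per the file headers, Agilent Feature Extraction (version 10.7.3.1) subtracted background from the Cy3 spot intensities and detrended them, without normalization between arrays. In the deposited table of the authors' values each number is a ratio of a spot's signal to its array's median, as found against the scanner files. Labels were the source of groups.

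Spots of a probe were averaged, outlier spots left out, and log2 intensity was set relative to the 75th percentile of the array. No spot was saturated. RefSeq tables named 21220 of 30367 probes, and 9147 kept the file's name. A probe was kept for testing where 4 or more arrays showed it well above background (17237 probes), with the brightest probe standing for a gene (15240 genes).

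A model with 5 group means was fitted to the 20 arrays (limma 3.58.1, R 4.3.3). Tests were two-sided, with Benjamini-Hochberg adjustment over all genes and a threshold of 0.05. The procedure was tested on simulated data.

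The fit of 5 group means had no block for the replicate number. Only between STW5 2 ml/kg and untreated did the deviations of every same-numbered pair correlate above 0.1. There the result with the replicate number as a block over all 5 groups is given as well. The numbers come from the titles.

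The text names all members, pathway genes that passed, for each list the 2 other genes with the smallest p in untreated against sham, and the genes most like Thbd (5 with the highest r, 2 with the lowest). Klf2, Klf4, F7, F12 and some cell markers are named in addition, after their values were seen. Members and lists were chosen with earlier results of these data known. Coding and untranslated positions follow the scanner files' transcript positions and open reading frames. Changes of the genes' tested probes that were smaller than their standard error are given as levels. Alternatives changed background correction, scaling, filter, probe summary, block, arrays fitted and a signal covariate, and left out each array in turn.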

Additional observations from a re-analysis of the deposited data

How the results depend on the processing

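Of the alternative values for single members, 282 of 310 kept their direction and their side of the threshold, or for untested Thbd differences moved by less than 1 SD, as did 252 of 268 with 1 array left out. Genes passing in untreated against sham (1) were 0 with normexp correction, quantile normalization, spike-in scaling, no filter, only the arrays compared and the signal covariate, 2 with the authors' value table, and 0 to 1761 with 1 array left out. For STW5 2 ml/kg against untreated (0) they were 3676 with spike-in scaling and 0 to 3014 with 1 array left out. Between the doses (0) they were 2343 with normexp correction, 7760 with spike-in scaling, 5376 with no filter, 118 with the filter at 10 arrays, and 0 to 805 with 1 array left out. For 0.5 ml/kg against untreated (0) there was 1 with the signal covariate and 0 to 5 with 1 array left out. The mean of both doses gave 0 to 161. For omeprazole against untreated (637) they were 406 with spike-in scaling, 383 with only the arrays compared, 1191 with the covariate, and 468 to 1141 with 1 array left out. For omeprazole against sham (722) they were 355, 1477 with only the arrays compared, and 433 to 737. The causes were not tested. With the replicate number as a block over all 5 groups, 513 genes passed for 2 ml/kg against untreated, 0 for untreated against sham and 529 between the doses. Beside Ggcx at 2 ml/kg, the block changed no member's call.

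Spike-in scaling moved the median of all genes to -0.87 for 2 ml/kg against untreated, -1.09 between the doses and 0.56 for omeprazole against sham. At 2 ml/kg against untreated Plaur (-1.67), Anxa2 (-1.58), Anxa5 (-2.35) and Ggcx (-1.98) then passed, and between the doses Plaur (-1.69), Anxa2 (-1.89) and Anxa5 (-2.53). Normexp correction also let Anxa2 (-1.09) and Anxa5 (-1.15) pass between the doses. Apart from leaving out 1 array, the alternatives gained a call for 13 member values in all. Normexp correction brought the Thbd differences to 1.06 for untreated against sham and -0.91 for the mean of STW5 against untreated. With the authors' value table, whose STW5 columns carry the other dose's arrays, the 2 minus 0.5 ml/kg difference reversed to 1.97 in Thbd, 0.56 in Plaur, 0.76 in Anxa2 and 1.40 in Anxa5, and Anxa2 at 2 ml/kg against untreated to 0.07. A random slide effect could not be fitted, since each group lies on 1 slide. Signal near background limits Thbd, Plaur and Ggcx, and F3 and Plau were not measurable.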
